A study of Mus musculus with 20 samples.

Results

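Compound 181 was set against compound 178 at matched doses in C2C12 cells, a mouse myoblast line that fuses into muscle fibres when it differentiates. The 6 arrays used were chosen by the compound and dose their labels give, 3 for 181 and 3 for 178 at 6.25, 12.5 and 25 µM, out of 20 in the series. The series holds the compounds, which its title calls ventromorphins and presents as activators of BMP signalling, beside recombinant BMP4. Total RNA was hybridised to Affymetrix mouse gene arrays, with 1 array for each compound and dose. All cells were grown in DMEM with serum, kept below confluence, plated in multiwell plates and changed to fresh medium with the agent the next day, and how long the cells were exposed was not stated. Methanol, which the protocol lists beside the compounds, was taken as their vehicle, and methanol replicates 2 and 3 lie in the same run of title numbers as both compounds. The protocol names 6.25 and 25 µM, and 12.5 µM was taken from the treatment labels. Both compounds are known here by code name only, and no structure is described.

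Bone morphogenetic proteins bind receptor kinases that activate SMAD transcription factors, which raise their own feedback inhibitors (Smad6, Smad7) and the Id proteins. Id proteins bind the partners of MyoD and myogenin and so hold back muscle differentiation. In C2C12 cells BMP ligands are known to stop the muscle program and to turn on osteoblast genes such as Sp7 and Alpl. The question the comparison answers is how far 2 compounds of the same study differ in these and other programs at equal dose.

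Marker levels were those of myoblasts. The 6 myoblast markers (Myod1, Myf5, Des, Cdh15, Chrna1 and Itga7) averaged 10.66 to 10.76 on the log2 scale in 181 arrays, 10.77 to 10.81 in 178 arrays and 10.77 to 10.80 in the methanol arrays, against a median of 5.41 over all genes. Each of the 8 endothelial markers lay below that median, as did 6 of the 8 macrophage markers (highest Cd68, 5.91) and 2 of the 7 epithelial markers (highest Krt19, 6.77). The array of 181 at 25 µM stood apart: its correlation with the other compound and methanol arrays over all probe sets was 0.9845 to 0.9884, while the other pairs reached 0.9887 to 0.9918. Many mean differences rest in part on it: of 120 genes picked by the naming rule, 48 had a difference more than 1.5 times smaller, of the same sign, without the 25 µM pair. The genes described in full are therefore given at each dose, and other examples with such a shift are given without that pair. Title numbers run 24 to 26 for 178 and 27 to 29 for 181 and rise with dose, so compound and position in the run cannot be told apart.

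No gene passed the test of the mean difference over the 3 doses. In limma's fit of the 6 arrays with dose as a block, 0 of 22180 genes were higher and 0 were lower in 181 at a Benjamini-Hochberg adjusted p under 0.05, that is 0% of genes in either direction, and the smallest adjusted p was 0.0521. At an unadjusted p under 0.05 there were 1180 genes higher (5.32%) and 1275 lower (5.75%) in 181, where 1109 in all would be reached by chance. The median standard error was 0.116. In the 3 comparisons at matched dose, fitted to all 20 arrays, 0 genes passed at any dose, also with p-values adjusted jointly over the 3 doses. The smallest adjusted p was 0.628 at 6.25 µM, 0.462 at 12.5 µM and 0.0605 at 25 µM, and 527, 736 and 1780 genes had an unadjusted p under 0.05 (2.38%, 3.32% and 8.03%). No gene passed for a slope of the difference on log2 dose either (727 genes, 3.28%, at an unadjusted p under 0.05). A p that misses the threshold does not show that the compounds act alike, and intervals are given below. For the mean difference, the spread behind these p-values is that of the 3 dose differences, so a difference that changes with dose widens it. At matched doses and for the slope, the spread comes from the untreated, methanol and BMP4 arrays. The labels do not say that arrays came from separate cultures, so the spread between arrays may be technical.

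The difference between the compounds was nevertheless wider at the top dose than at the others. Its median size over all genes was 0.109 at 6.25 µM, 0.122 at 12.5 µM and 0.156 at 25 µM on the log2 scale, against 0.104 between methanol replicates 3 and 2. Genes at least 1 log2 unit higher in 181 numbered 10, 16 and 72 by dose and those at least 1 unit lower 8, 14 and 47, while the methanol pair gave 11 and 8. At 6.25 µM the compounds thus differed about as much as the methanol arrays did. Of the 72 genes higher by 1 unit at 25 µM, 54 were higher in 181 at 6.25 µM and 55 at 12.5 µM. Of the 47 lower ones, 34 were lower at 6.25 µM and 41 at 12.5 µM. Over all 22180 genes, 10719 were higher and 11457 lower at 6.25 µM, and 11107 higher and 11065 lower at 12.5 µM. Over all 22180 genes the differences at 2 doses had a Pearson correlation of 0.10 (6.25 and 12.5 µM), 0.19 (6.25 and 25 µM) and 0.21 (12.5 and 25 µM), which are descriptions over genes that share arrays within a dose.

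Among genes above the median signal with the same sign at all 3 doses, the 12 with the highest mean difference held solute and detoxifying genes (Slc1a3, Adh7, Aldh3a1, Gsta4), chemokines (Cxcl5, Ccl5, Cxcl1, Cxcl12) and genes tied to BMP or bone (Ranbp3l, Phex, Sfrp2), with the olfactory receptor gene Olfr1269 as the last. Their mean differences ran from 0.73 to 1.20 with adjusted p-values of 0.0521 to 0.239. Outside those limits 9 dim or mixed-sign genes had a mean difference as high, the dim Slc7a11 among them. The 3 arrays of 181 lay above the 3 of 178 for 10 of the 12, where 7.08% of all genes did so. Phex and Sfrp2 were the exceptions, because 181 at 6.25 µM overlapped with 178. For 9 of the 12 the difference widened from each dose to the next, and 17.3% of all genes had that order. These genes were picked by the size of this difference, so the counts describe them and test nothing.

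**Figure D1:**
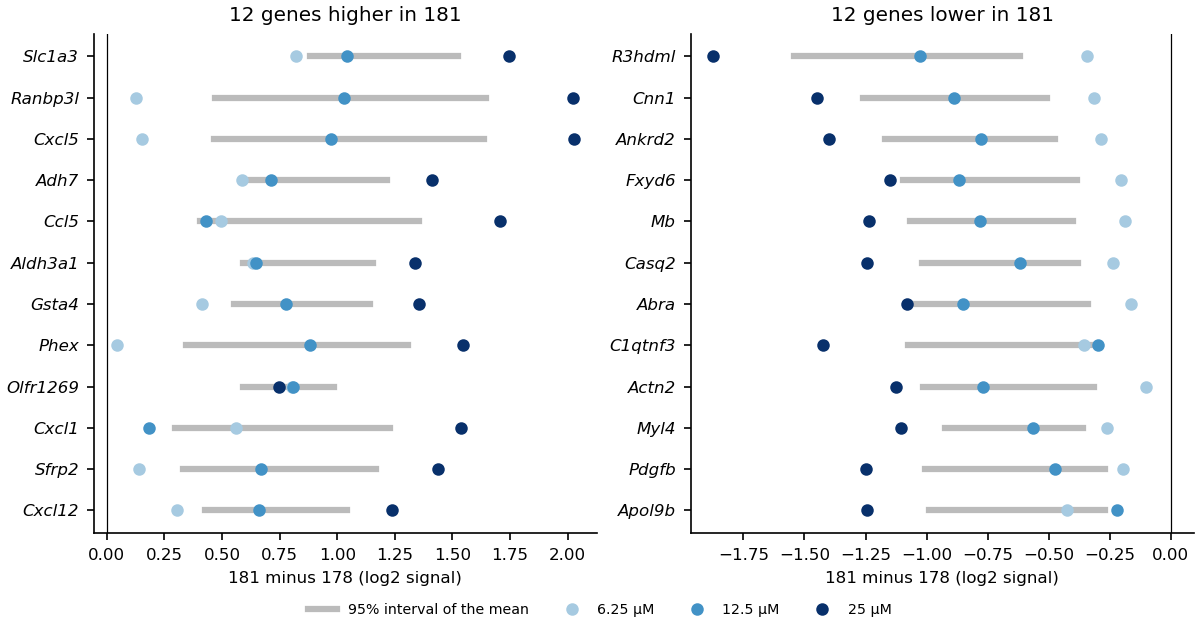
Difference in log2 signal (horizontal axis, 181 minus 178) of the 12 genes highest and the 12 lowest in 181 among named genes above the median signal with 1 sign at all 3 doses, which leaves out the dim Slc7a11. Dots are the 3 doses, light to dark, and grey bars are 95% intervals of the mean over doses from limma. The 25 µM dot lies farthest from 0 for all genes except Olfr1269, whose 3 dots fall between 0.75 and 0.81.

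Slc1a3 (probe set 17315860), a sodium-coupled glutamate and aspartate transporter, had the highest mean difference of these 12 genes. Its log2 signal was 7.23, 7.81 and 8.73 in 181 at 6.25, 12.5 and 25 µM, against 6.41, 6.77 and 6.98 in 178 and 6.87 and 6.92 in methanol. Every 181 array was above every 178 and methanol array. The mean difference was 1.20 (95% interval 0.88 to 1.53, 2.30-fold, limma adjusted p = 0.0521), and without the 25 µM pair it was 0.93. Ranbp3l encodes a nuclear export factor of BMP-activated SMADs. It stood at 5.88, 6.58 and 7.61 in 181, against 5.75, 5.56 and 5.59 in 178 and 5.61 and 6.07 in methanol, so at 6.25 µM the 181 array lay within the methanol pair. The mean difference was 1.06 (0.47 to 1.65, adjusted p = 0.211).

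Sfrp2, a secreted Wnt antagonist, reached 6.36, 6.98 and 7.89 in 181, against 6.22, 6.31 and 6.45 in 178 and 6.03 and 5.97 in methanol. The difference was 0.75 (0.33 to 1.17, adjusted p = 0.212), and a dimmer probe set of Sfrp2 gave 0.13. Phex, an endopeptidase of bone cells that governs phosphate handling, showed 5.71, 6.49 and 7.59 in 181, against 5.67, 5.61 and 6.05 in 178 and 5.47 and 5.96 in methanol. For both genes 181 and 178 were close at 6.25 µM and apart at the higher doses. Adh7, an alcohol dehydrogenase that also oxidises retinol, was already separated at the low dose, with 6.86, 7.21 and 7.63 in 181, against 6.27, 6.49 and 6.22 in 178 and 6.52 and 6.68 in methanol (difference 0.90, 0.59 to 1.22, adjusted p = 0.127).

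By the same limits (a signal above the median of genes and 1 sign at all 3 doses), the 12 genes lowest in 181 were R3hdml, Cnn1, Ankrd2, Fxyd6, Mb, Casq2, Abra, C1qtnf3, Actn2, Myl4, Pdgfb and Apol9b. Ankrd2, Mb, Casq2, Abra, Actn2 and Myl4 are genes of striated muscle. Mean differences ran from -0.63 to -1.08 with adjusted p-values of 0.178 to 0.223. All 12 had the 181 arrays below the 178 arrays (8.6% of all genes), and for 10 the difference fell further from each dose to the next (18.8% of all genes). Outside those limits 9 dim or mixed-sign genes had a mean difference as low, and 1 unnamed locus inside them was left out by the naming rule. R3hdml (probe set 17379260) had the lowest mean difference of all 22180 genes. It stood at 8.85, 8.17 and 7.14 in 181, against 9.19, 9.19 and 9.01 in 178 and 9.01 and 8.64 in methanol, a mean difference of -1.08 (-1.54 to -0.62, adjusted p = 0.180). At 25 µM it was 3.66-fold lower in 181 than in 178 (adjusted p = 0.0623 at that dose).

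**Figure D2:**
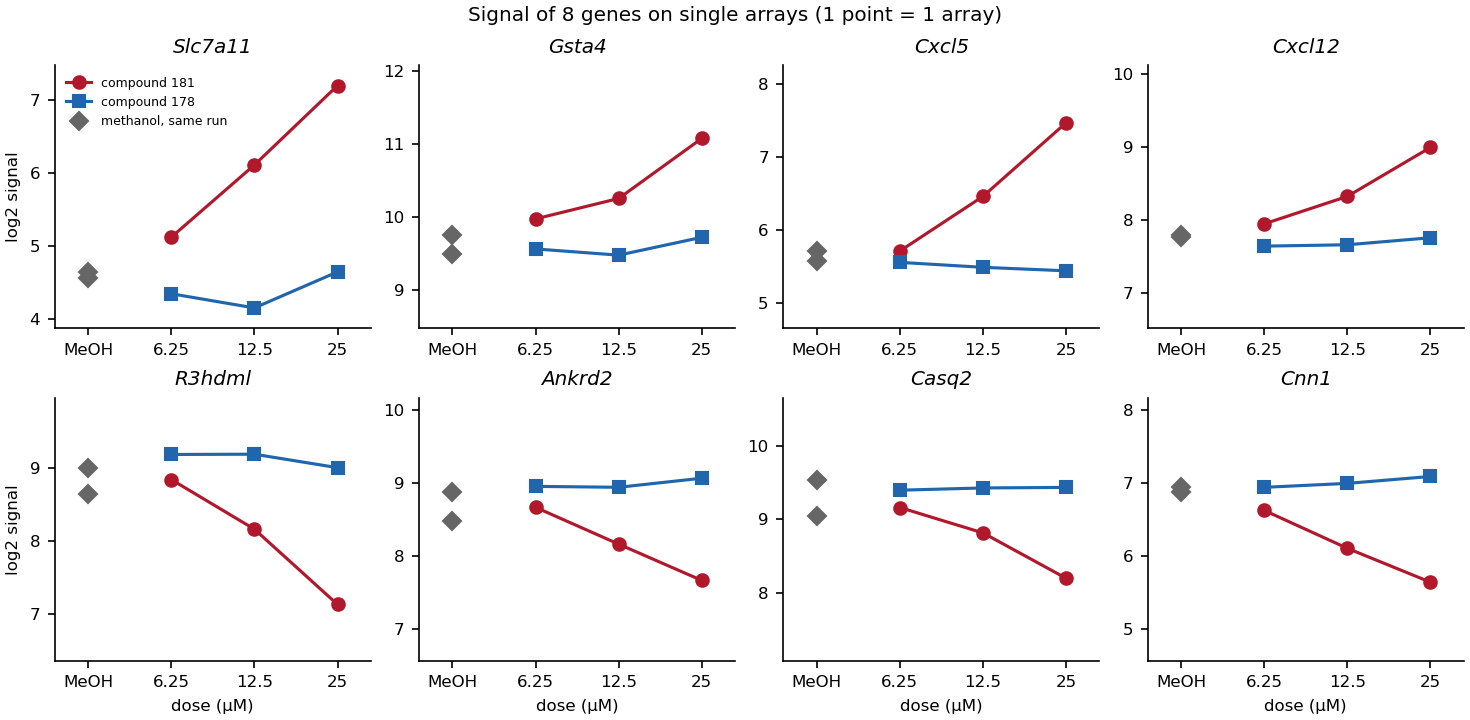
Log2 signal (vertical axis, each panel spanning the same number of log2 units) by dose in µM for 8 genes, with 1 point per array: compound 181 (red circles), compound 178 (blue squares) and methanol replicates 2 and 3 at the left (grey). At 25 µM the 178 point lies nearer to the methanol points than the 181 point in each panel, and the 181 line climbs with dose in the top row and descends in the bottom row.

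Contractile and neuromuscular genes formed the most uniform group. All 50 measured members were lower in 181 on average, and 42 had an unadjusted p under 0.05 in that direction, where 5.75% of all genes did, although 0 of the 50 passed at an adjusted p under 0.05. They were lower for 39 genes at 6.25 µM, 48 at 12.5 µM and 50 at 25 µM, and 37 were lower at all 3 doses (17.7% of all genes). The median difference was -0.33, against -0.01 over all genes, and by dose it was -0.09, -0.30 and -0.58. At 25 µM the members ranged from -1.40 to -0.04, and for 43 of the 50 the difference fell further at each dose (18.8% of all genes). Without the 25 µM array the count of members lower at both remaining doses was 37, or 74%, against 27.4% of all genes. Calls depended on the model. In 11 of 15 alternative fits no member passed, among them the fit without the 25 µM pair (0.00451% of all genes lower, 0.0406% higher), for which the list's median was -0.18. In a fit without the 6.25 µM pair 26 members passed, all lower (0.473% of all genes lower, 0.37% higher), and without the 12.5 µM pair 9 passed, all lower (0.194% of all genes lower, 0.203% higher). Under a difference proportional to dose 38 passed (1.83% of all genes lower), and 37 passed when the spread came from the methanol pair alone (3.12%). Both models were chosen after seeing the data. In the methanol model the array spread rests on a single pair of arrays, so its count is a description. In bulk RNA, fewer cells of a type and less RNA per cell cannot be told apart.

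The muscle genes also differed between the methanol arrays. In methanol replicate 3 they were lower than in replicate 2 for 46 of the 50, with a median of -0.24, which is larger than the 181 difference at 6.25 µM and smaller than the one at 25 µM. The part of this spread in the compound difference was not tested. Against both methanol arrays, 181 at 25 µM was lower for 46 of the 50 genes and 178 at 25 µM for 2. Of all 22180 genes, 8490 were lower in this way in 181 and 7064 in 178. The median distance from the methanol mean at 25 µM was -0.54 in 181 and 0.08 in 178.

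Ankrd2 (probe set 17359493), a stretch-responsive ankyrin repeat protein of muscle, stood at 8.66, 8.16 and 7.66 in 181, against 8.95, 8.94 and 9.06 in 178 and 8.88 and 8.48 in methanol. Casq2, the calcium buffer of the sarcoplasmic reticulum, showed 9.16, 8.82 and 8.19 in 181, against 9.40, 9.43 and 9.44 in 178 and 9.54 and 9.05 in methanol. The oxygen store myoglobin, Mb, had 8.33, 7.91 and 7.37 in 181, against 8.51, 8.69 and 8.61 in 178 and 8.72 and 8.40 in methanol. In each of these the 181 arrays descended with dose while the 178 arrays stayed close to one another. The mean differences were -0.82 (-1.17 to -0.47) for Ankrd2, -0.70 (-1.02 to -0.38) for Casq2 and -0.74 (-1.07 to -0.40) for Mb, with adjusted p-values of 0.178, 0.190 and 0.190. Among thick and thin filament genes, Myh3 (embryonic myosin heavy chain) differed by -0.51 (-0.26 without the 25 µM pair), Tnnt2 (troponin T) by -0.42 (-0.20 without it), Myl4 (embryonic myosin light chain) by -0.64 (-0.41 without it), Actn2 (Z-disc actinin) by -0.67 (-0.44 without it) and Acta1 (skeletal actin) by -0.32. Members near 0 were Musk (-0.03), Myl3 (-0.05), Nebl (-0.05) and Tcap (-0.07).

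**Figure D3:**
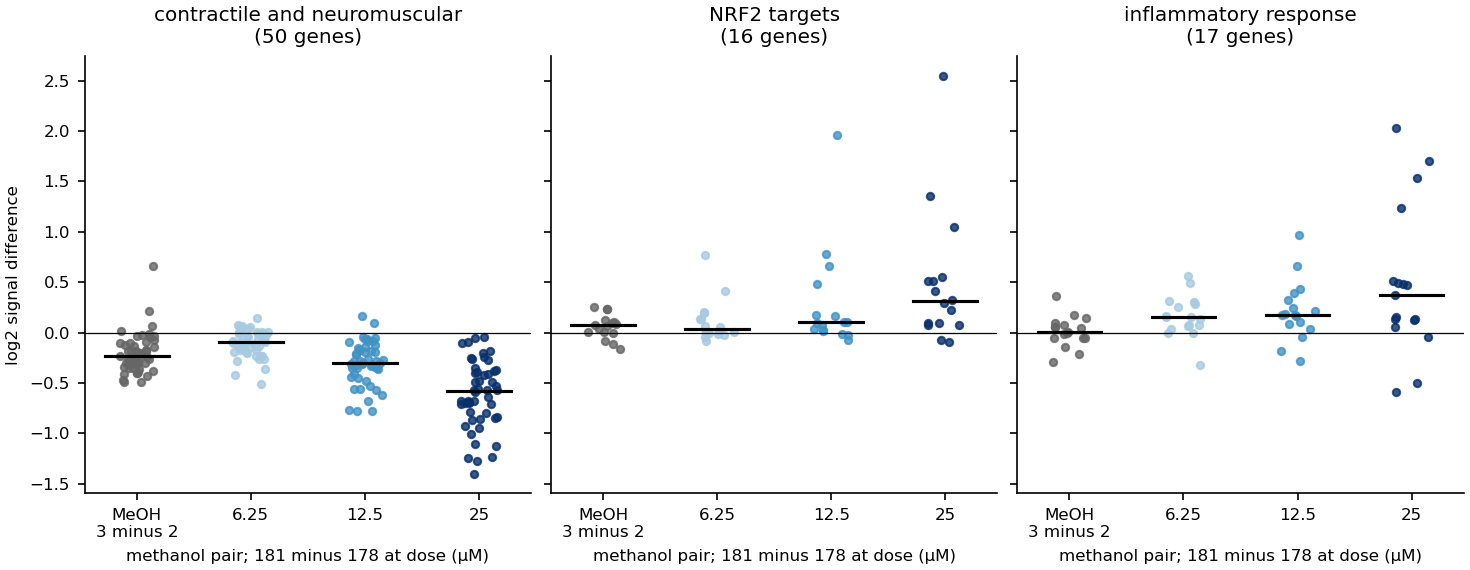
Differences in log2 signal (vertical axis) of the single genes of 3 lists. Grey points are methanol replicate 3 minus 2, blue points are 181 minus 178 at 6.25, 12.5 and 25 µM, and bars are medians. The contractile medians are -0.24 for methanol and -0.09, -0.30 and -0.58 by dose, and the medians of NRF2 targets and inflammatory genes at 25 µM are 0.31 and 0.37.

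Of the 17 myogenic regulators, 7 were lower and 0 higher at an unadjusted p under 0.05 (5.75% and 5.32% of all genes). At all 3 doses 8 were lower and 3 higher (17.7% and 15.6% of all genes). The median was -0.12 (-0.01, -0.07 and -0.32 by dose, and -0.02 for the mean without the 25 µM pair). Myod1, the factor that commits cells to muscle, had 10.38, 10.41 and 10.36 in 181, against 10.44, 10.44 and 10.43 in 178, a difference of -0.05 (-0.15 to 0.04). Myog (probe set 17217428), which drives terminal differentiation, stood at 10.88, 10.67 and 10.24 in 181, against 11.02, 10.99 and 11.16 in 178 and 10.85 and 10.69 in methanol. Only its 12.5 and 25 µM arrays of 181 lay below the methanol pair, and the mean difference from 178 was -0.45 (-0.71 to -0.20, adjusted p = 0.211). Mef2c, a cooperating factor, stood at -0.39, the fusion peptide Mymx at -0.42 and the fusion protein Mymk at -0.19. Without the 25 µM pair these were -0.20, -0.24 and -0.07, and Myog was -0.23. The early factor Myf5 stood at 0.10 (-0.02 to 0.23).

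NRF2 is a transcription factor that answers oxidants and electrophiles and raises genes of glutathione and quinone metabolism. Of its 16 measured targets, 7 were higher and 0 lower in 181 at an unadjusted p under 0.05 (5.32% of all genes higher), 0 passed after adjustment, and 11 were higher at all 3 doses (15.6% of all genes). The median difference was 0.16, and 0.04, 0.10 and 0.31 by dose, against 0.07 between the methanol arrays. Without the 25 µM array the median was 0.06, and 11 of 16 (68.8%) were higher at both doses, where 25.9% of all genes were. At 25 µM, 15 of the 16 exceeded both methanol arrays in 181 and 5 did in 178. Of all 22180 genes, 8229 did so in 181 and 8210 in 178. In the same 2 models chosen after seeing the data, 5 of the 16 passed with a difference proportional to dose (1.32% of all genes higher). With the spread of the methanol pair 6 passed (2.47%).

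Slc7a11 (probe set 17405082), the light chain of the cystine transporter that feeds glutathione synthesis, had the highest mean difference of all genes. Its signal was 5.12, 6.11 and 7.19 in 181, against 4.34, 4.15 and 4.64 in 178 and 4.56 and 4.64 in methanol, so the 181 arrays climbed with dose and the 178 arrays stayed near or below methanol. The mean difference was 1.76 (1.18 to 2.34, 3.39-fold, adjusted p = 0.108), and at 25 µM it was 2.55 (1.88 to 3.22, 5.86-fold, adjusted p = 0.0605 at that dose). When the mean over doses was fitted to all 20 arrays it was the only called gene of the 22180 (adjusted p = 0.0122). It is dim, with a mean signal below the median of genes, and a dimmer probe set of the same gene gave 0.46. The 250 bases upstream of its annotated start are shown because this gene had the highest difference, with capitals marking both matches to TGATGNAA, the C/EBP-ATF response element that integrated stress factors bind (RefSeq, GRCm38.p6, minus strand, chr3:50443614-50443863).
Slc7a11: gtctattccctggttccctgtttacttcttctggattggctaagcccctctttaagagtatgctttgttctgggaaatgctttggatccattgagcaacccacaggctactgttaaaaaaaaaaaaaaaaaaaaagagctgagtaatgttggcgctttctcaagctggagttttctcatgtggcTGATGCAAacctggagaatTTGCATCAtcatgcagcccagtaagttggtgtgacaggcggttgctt

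The matches begin 66 and 47 bases before the start and lie on opposite strands. This motif, searched on both strands, occurs in 3.45% of 32851 promoter windows of this length. It had no match in the windows of Trib3, Ddit3 and Sesn2, integrated stress genes described below. The antioxidant response element TGACNNNGC, present in 10.2% of windows, had no match in the windows of Slc7a11 and Nqo1. The windows of Gsta3 and Sesn2 each had 1 match to it. A match is a description of letters and no evidence of binding.

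Gsta4 (probe set 17519649), a glutathione transferase for products of lipid peroxidation, stood at 9.97, 10.25 and 11.07 in 181, against 9.56, 9.47 and 9.72 in 178 and 9.49 and 9.75 in methanol. The quinone reductase Nqo1 showed 6.21, 6.44 and 6.87 in 181, against 6.08, 5.78 and 5.83 in 178 and 5.92 and 6.04 in methanol. Both genes were above methanol at every dose of 181. Their mean differences were 0.85 (0.55 to 1.14, adjusted p = 0.127) and 0.61 (0.28 to 0.95, adjusted p = 0.209). Gsta3 and Osgin1 followed at 0.40 and 0.31 (0.34 and 0.18 without the 25 µM pair). Several well-known targets showed little difference: Hmox1 (heme oxygenase) 0.02 (-0.15 to 0.19), Gclc -0.05 (-0.19 to 0.09), Gclm 0.04 (-0.09 to 0.16) and Txnrd1 0.14 (-0.01 to 0.30).

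Targets of the aryl hydrocarbon receptor, a sensor of planar aromatic ligands, were mixed. Of 9 measured, 3 were higher and 0 lower at an unadjusted p under 0.05 (5.32% and 5.75% of all genes), with a median of 0.05. Cyp1b1 (probe set 17347448), a cytochrome of xenobiotic metabolism, stood at 7.32, 7.62 and 7.34 in 181, against 6.72, 6.81 and 6.79 in 178 and 6.96 and 7.16 in methanol. The 181 arrays were above methanol and the 178 arrays below it, with no order by dose, and the difference was 0.65 (0.47 to 0.83, adjusted p = 0.0521). Aldh3a1, an aldehyde dehydrogenase, had 7.50, 7.70 and 8.03 in 181, against 6.87, 7.05 and 6.69 in 178 and 6.85 and 7.14 in methanol (difference 0.87, 0.59 to 1.15, adjusted p = 0.101). Cyp1a1, the classical target, was dim and differed by -0.04 (-0.37 to 0.30). The window upstream of Cyp1b1 is shown because it separated at the lowest dose, with capitals marking the match, on the opposite strand, to the receptor's core motif GCGTG (RefSeq, GRCm38.p6, minus strand, chr17:79715062-79715311).
Cyp1b1: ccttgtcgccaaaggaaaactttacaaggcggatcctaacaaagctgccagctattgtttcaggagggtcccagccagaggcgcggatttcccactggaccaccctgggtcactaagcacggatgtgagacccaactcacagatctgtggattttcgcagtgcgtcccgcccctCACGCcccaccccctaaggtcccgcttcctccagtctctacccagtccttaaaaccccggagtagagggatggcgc

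The match begins 76 bases before the start. GCGTG, on either strand, is present in 28.2% of the 32851 windows.

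Most inflammatory genes had a higher signal in 181, 14 of 17 at each dose, with 3 lower. Of the 17, 8 were higher and 2 lower at an unadjusted p under 0.05 (5.32% and 5.75% of all genes), and 0 passed after adjustment. At all 3 doses 12 were higher and 2 lower (15.6% and 17.7% of all genes). The median was 0.17, and 0.16, 0.18 and 0.37 by dose, with 0.00 between the methanol arrays. At both low doses 13 of 17 (76.5%) were higher, against 25.9% of all genes. Under the same 2 later models, proportional dose and methanol spread, 8 of the 17 passed as higher in each (1.32% and 2.47% of all genes). The members that led were chemokines, which attract leukocytes. Other chemokines differed less, with Ccl7 at 0.30, Ccl2 at 0.25, Cxcl10 at 0.13 and Cxcl2 at 0.09. Without the 25 µM pair Ccl7, Ccl2 and Cxcl10 were 0.18, 0.12 and 0.00. Lif was lower (-0.32, and -0.18 without that pair).

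Cxcl5 (probe set 17438955), a neutrophil attractant, stood at 5.71, 6.46 and 7.47 in 181, against 5.56, 5.49 and 5.44 in 178 and 5.57 and 5.72 in methanol (difference 1.05, 0.47 to 1.64, adjusted p = 0.211). At 6.25 µM it was level with methanol. Ccl5, a T cell attractant, showed 5.76, 5.58 and 6.83 in 181, against 5.26, 5.15 and 5.13 in 178 and 5.31 and 5.17 in methanol, and most of its difference lay at 25 µM (1.71, adjusted p = 0.0605 at that dose). Cxcl12, which retains stem cells in their niche, had 7.95, 8.33 and 9.00 in 181, against 7.65, 7.66 and 7.76 in 178 and 7.79 and 7.78 in methanol. Its 181 arrays all exceeded the closely matched methanol arrays, and the difference was 0.73 (0.43 to 1.04, adjusted p = 0.178). Cxcl1 differed by 0.76 (0.37 without the 25 µM pair) and Csf1, the macrophage growth factor, by 0.35. The inhibitors of NF-kappaB signalling did not follow: Nfkbia stood at 0.09 (-0.07 to 0.24) and Tnfaip3 at -0.23 (-0.09 without the 25 µM pair).

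C2C12 is a myoblast line, and macrophage markers are given here only because macrophages also make chemokines. The mean of the 8 macrophage markers spanned 4.51 to 4.65 in 181 and 4.56 to 4.65 in 178, and their median difference was 0.10. Of the 8, 6 lay below the gene median of 5.41, including Ptprc (3.42, 3.82 and 3.77 in 181, against 3.28, 3.45 and 3.47 in 178) and Adgre1 (3.66, 3.78 and 3.36 in 181, against 4.23, 4.12 and 3.69 in 178). Cd68 and C1qa lay above it on every compound array. Cd68 stood at 5.87, 6.05 and 6.12 in 181, against 6.01, 5.83 and 5.59 in 178 and 6.03 and 6.17 in methanol, so its difference (-0.14, 0.22 and 0.54) widened with dose as the chemokine differences did, while its 181 arrays stayed at or below the higher methanol array. The source of the chemokine difference was not tested.

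The unfolded protein and integrated stress lists moved in both directions. Of 27 genes, 5 were higher and 5 lower at an unadjusted p under 0.05 (5.32% and 5.75% of all genes). At all 3 doses 5 were higher, near the 15.6% of all genes, and 12 were lower, against 17.7% of all genes. The median was -0.04 (-0.03, -0.02 and -0.07 by dose). The higher ones were Aldh1l2, a mitochondrial folate enzyme (0.68, 0.40 to 0.95, adjusted p = 0.178), the pseudokinase Trib3 (0.51, and 0.33 without the 25 µM pair), Ddit3, which encodes the factor CHOP (0.48, 0.28 to 0.68, adjusted p = 0.178), Sesn2 (0.34, and 0.17 without that pair) and Atf3 (0.29). Ddit3 stood at 7.11, 7.07 and 7.52 in 181, against 6.74, 6.70 and 6.82 in 178 and 6.78 and 6.91 in methanol, above methanol at each dose. The amino acid synthesis genes Asns (-0.17) and Psat1 (-0.20, and -0.11 without that pair) stood below 0, the factor Atf4 stood at 0.00 (-0.14 to 0.14), and the chaperone Hspa5 at -0.05 (-0.18 to 0.07).

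BMP and SMAD targets read the signalling that the series title names. Of 18, 3 were higher and 2 lower at an unadjusted p under 0.05 (5.32% and 5.75% of all genes). At all 3 doses 7 were higher and 2 lower (15.6% and 17.7% of all genes). The median was 0.02 (0.03, 0.04 and 0.05 by dose), smaller than the 0.09 between the methanol arrays. Id3 had 8.87, 9.04 and 9.35 in 181, against 8.69, 8.70 and 8.80 in 178 and 8.79 and 8.91 in methanol (difference 0.36, 0.20 to 0.52, adjusted p = 0.188). Id1 had 7.12, 7.30 and 7.68 in 181, against 6.93, 7.17 and 7.17 in 178 and 7.20 and 7.37 in methanol (difference 0.28, 0.08 to 0.48, adjusted p = 0.310). Id1 was above the methanol pair only in 181 at 25 µM, and Id3 in 181 at 12.5 and 25 µM. Id2 differed by 0.08 (-0.03 to 0.20), Smad6 by -0.12 (-0.35 to 0.11) and Smad7 by 0.02 (-0.20 to 0.23). Dlx5, a homeobox factor of osteoblasts, was dim and stood at -0.34 (-0.67 to -0.01).

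Among 16 osteoblast genes, 2 were higher (Phex, Omd) and 3 lower (Postn, Bmp2, Col1a1) at an unadjusted p under 0.05, against 5.32% and 5.75% of all genes. The median was -0.05 (0.02, -0.19 and -0.03 by dose). The osteoblast factor Sp7 differed by 0.07 (-0.24 to 0.38) and alkaline phosphatase, Alpl, by 0.06 (-0.19 to 0.31), with signals of 4.89 to 5.08 in 181 and 4.84 to 5.08 in 178 for Alpl. The matrix protein Postn had 7.63, 7.36 and 7.16 in 181, against 7.78, 7.85 and 8.32 in 178 and 7.79 and 7.27 in methanol. The methanol arrays lay farther apart than the compounds did at 6.25 and 12.5 µM, and the difference was -0.60 (-0.93 to -0.27, adjusted p = 0.211).

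Most targets of TGF-beta, a ligand of the same superfamily as the BMPs, had a lower signal in 181. Of 15, 8 were lower and 0 higher at an unadjusted p under 0.05 (5.75% and 5.32% of all genes). At all 3 doses 10 were lower and 1 higher (17.7% and 15.6% of all genes). The median was -0.19 (-0.04, -0.12 and -0.29 by dose). Without the 25 µM array the median was -0.08, and 66.7% were lower at both doses, against 27.4% of all genes. Ccn2, a matrix-associated growth factor, stood at 8.88, 8.95 and 9.02 in 181, against 9.23, 9.37 and 9.59 in 178 and 8.96 and 9.13 in methanol. Here the 178 arrays lay above methanol and the 181 arrays within or just below it, and the difference was -0.45 (-0.58 to -0.32, adjusted p = 0.0616). Cnn1 (probe set 17515402), calponin of smooth muscle, had 6.63, 6.11 and 5.65 in 181, against 6.94, 7.00 and 7.09 in 178 and 6.94 and 6.88 in methanol, so there the 181 arrays were the ones to leave methanol (difference -0.88, -1.26 to -0.51, adjusted p = 0.180). Tagln, another actin-binding gene, differed by -0.38 (-0.21 without the 25 µM pair) and Pmepa1, a feedback inhibitor, by -0.31 (-0.14 without it). Acta2, smooth muscle actin, differed by -0.11 (-0.21 to -0.02).

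Extracellular matrix genes were split, with 7 of 30 higher and 3 lower at an unadjusted p under 0.05 (5.32% and 5.75% of all genes). The median was -0.02 (0.05, -0.05 and -0.04 by dose). Col6a2 (0.37, adjusted p = 0.190), Fbln1 (0.36, adjusted p = 0.190) and decorin, Dcn (0.28, and 0.15 without the 25 µM pair), were higher, and fibromodulin, Fmod, was lower (-0.40, and -0.26 without that pair, its dimmer probe set 0.08). Of 15 hypoxia and glycolysis genes, 7 were lower and 1 higher at an unadjusted p under 0.05 (5.75% and 5.32% of all genes). Their median was -0.14 (-0.01, -0.17 and -0.28 by dose) beside -0.10 between the methanol arrays. The prolyl hydroxylase gene Egln3 had 9.43, 8.99 and 8.48 in 181, against 9.59, 9.49 and 9.45 in 178 and 9.55 and 9.31 in methanol (difference -0.54, -0.80 to -0.28, adjusted p = 0.194). Egln1 differed by -0.33 and the kinase Pdk1 by -0.35 (its much dimmer probe set 0.09).

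In the other 17 lists 0 genes passed. At an unadjusted p under 0.05, 5.32% of all genes were higher and 5.75% lower. At that limit the numbers higher and lower in these lists were 1 and 2 of 17 Wnt genes, 1 and 3 of 11 Notch targets, 1 and 1 of 36 cell cycle genes, 4 and 1 of 16 p53 targets, 1 and 3 of 16 cholesterol genes, 1 and 0 of 8 sterol efflux genes, 1 and 0 of 12 heat shock genes, and 1 and 0 of 14 interferon genes. They were 0 and 6 of 21 immediate early genes, 4 and 3 of 13 adipocyte genes, 0 and 1 of 13 chondrocyte genes, 1 and 1 of 13 estrogen and glucocorticoid targets, 0 and 1 of 15 clock genes, and 0 and 0 of 14 autophagy and lysosome genes. Endothelial, epithelial and macrophage markers had 0 and 0 of 8, 0 and 1 of 7, and 0 and 1 of 8. Medians of these lists lay between -0.14 (chondrocyte) and 0.10 (adipocyte genes and macrophage markers). In the cell cycle list 5 genes were higher and 4 lower at all 3 doses (15.6% and 17.7% of all genes), with a median of 0.01. Fos and Fosb, immediate early factors, stood at -0.32 and -0.34. Of 16 cholesterol genes 8, 9 and 14 were lower by dose, and of 12 heat shock genes 9, 6 and 11, where 52.2% of all genes were lower at 25 µM.

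**Figure D4:**
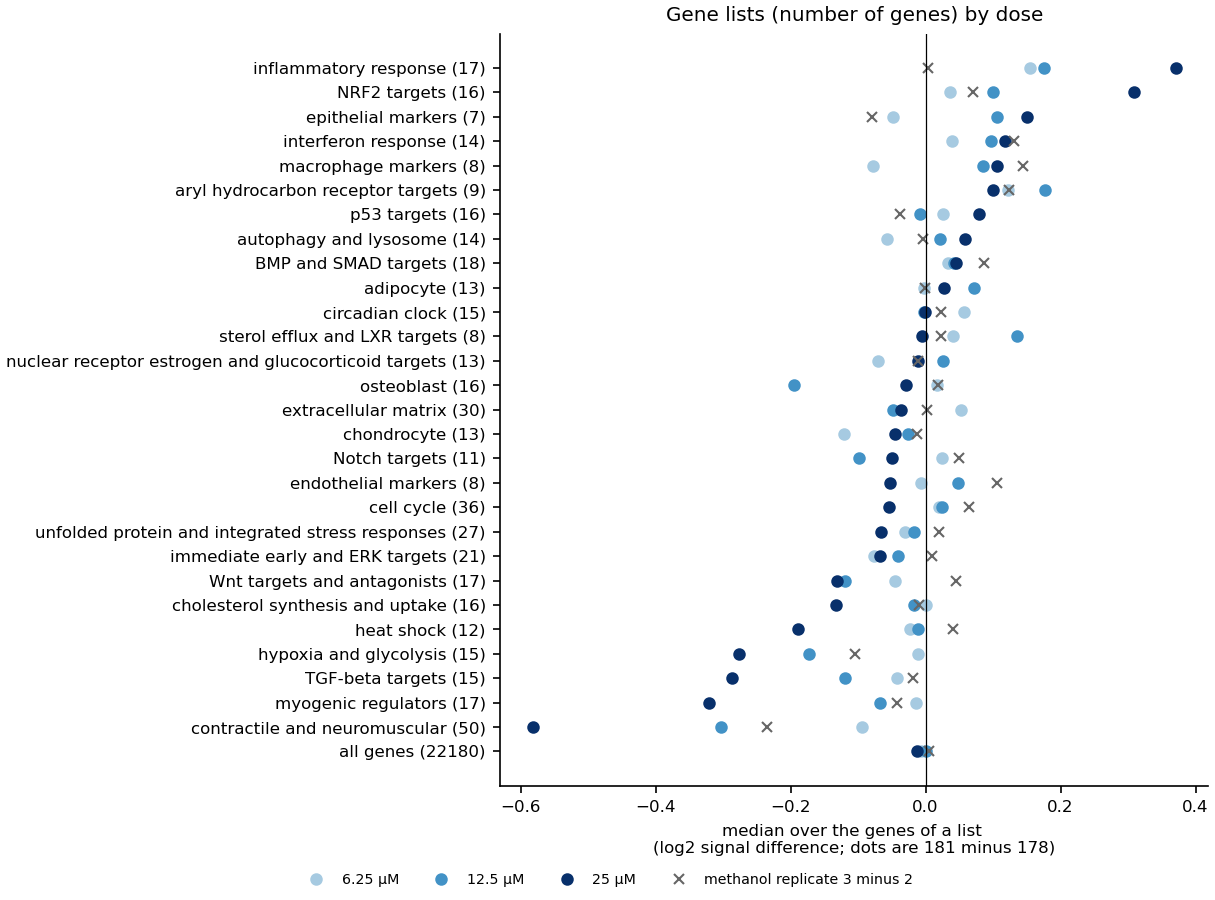
Median difference in log2 signal (horizontal axis) over the genes of each of the 28 lists and over all genes, with the number of genes in brackets. Dots are 181 minus 178 at 3 doses, light to dark, and crosses are methanol replicate 3 minus 2. The contractile list lies lowest at 25 µM (-0.58) and the inflammatory list highest (0.37), and the medians over all genes lie at -0.01, 0.00 and -0.01 by dose.

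A separate readout of BMP4 was taken from the first run of title numbers, where BMP4 at 100 ng/ml replicate 1 was set against the mean of the untreated and methanol arrays of that run. It shares no array with the compounds. Genes at least 1 log2 unit lower with BMP4 numbered 516, and in 181 minus 178 their median was -0.02, -0.12 and -0.27 by dose. Of them 44.8% were lower at all 3 doses and 6.59% higher, against 17.7% and 15.6% of all genes, and 83.3% were lower at 25 µM. Without the contractile list, 42.1% of the remaining 478 genes were lower at all 3 doses. At both low doses 47.5% of the 516 were lower, against 27.4% of all genes, and between the methanol arrays their median was -0.05.

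The 374 genes at least 1 unit higher with BMP4 had medians of 0.02, 0.05 and 0.10 by dose. Of them 30.5% were higher at all 3 doses and 13.9% lower. Slc1a3, Ranbp3l, Sfrp2, Cxcl12 and Phex were higher with BMP4 as well (2.53, 3.32, 5.63, 1.83 and 1.45), and R3hdml, Casq2 and Ankrd2 were lower (-4.75, -4.87 and -4.83). Of the 12 highest genes 9 were higher with BMP4, some by little (Cxcl5 0.10), and 3 were lower (Ccl5 -0.63, Gsta4 -0.34 and Aldh3a1 -0.18). Of the 12 lowest 11 were lower, Cnn1 being the exception at 2.10. The median BMP4 difference over all genes was -0.01, so all genes lay about evenly on both sides of 0. Several genes high with BMP4 showed the opposite in the compound difference, namely Fmod (5.16 with BMP4), Postn (2.64), Dlx5 (1.93) and Ccn2 (1.39). Sp7, Alpl and Smad6, at 5.64, 4.62 and 3.07 with BMP4, showed differences of 0.07, 0.06 and -0.12 between the compounds. Over all 22180 genes the Pearson correlation with the BMP4 difference was 0.01, 0.12 and 0.20 by dose and 0.07 for the methanol pair, as a description over genes.

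**Figure D5:**
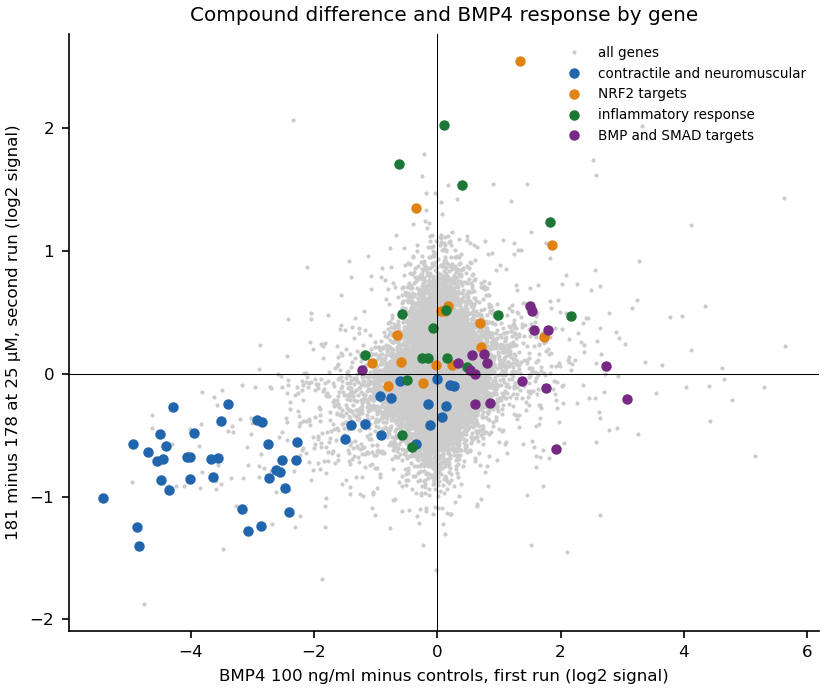
Each point is a gene: difference of BMP4 at 100 ng/ml from controls in the first run (horizontal axis, log2 signal) and 181 minus 178 at 25 µM in the second (vertical axis, log2 signal). Contractile genes (blue) all lie below 0 on the vertical axis (-1.40 to -0.04), and most but not all lie low on the horizontal axis. BMP and SMAD targets (purple) reach 3.07 with BMP4 and stay between -0.62 and 0.55 between the compounds.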

How the data were processed

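The authors deposited log2 signals, 1 value per probe set and array, made with RMA in Partek 6.5, per the submitters' processing notes. RMA corrects background, normalizes quantiles and summarises probes. The labels' protocols mention a batch correction over 2 labelling methods. Its use on these values, and the genome build, are not given in the sources used here. Both compounds were labelled by the standard method. The number of arrays limits the precision.

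Of 41345 probe sets, 23521 carried 1 gene symbol in the platform annotation, 1814 several and 16010 none, and only the first kind was named. The probe set with the highest mean over the 20 arrays stood for each of the 22180 genes (1082 had more than 1). Symbols follow that annotation, which may be out of date. No filter on dim genes was set.

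Tests used limma 3.58.1 in R 4.3.3 with a variance trend on signal and Benjamini-Hochberg adjustment over all genes, called under 0.05. The mean difference was fitted to the 6 arrays with dose as a block (2 residual degrees of freedom). Matched doses and the slope were fitted to all 20 arrays with a mean per treatment and dose and terms for labelling and title run (4 residual degrees of freedom), so a single array was assumed to vary like groups with several. Pairing by dose comes from the labels. The fits were tested on simulated data first.

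The genes named are the 12 highest and 12 lowest in the mean difference (called genes first, otherwise genes above the median signal with 1 sign at all 3 doses, predicted and unnamed loci left out), up to 4 per list with the largest difference of 1 sign, and 11 fixed genes of BMP and muscle biology. Other list members are named as examples, chosen after their values were seen. The 28 lists held 512 entries, of which 472 were measured. The comparison, the lists and the fixed genes were chosen with earlier results of these data known. Promoter windows came from RefSeq, build GRCm38.p6. Intervals are 95% intervals without adjustment. Alternatives covered the block, the arrays fitted, moderation, probe sets, a filter on dim genes, scaling, and leaving out pairs or arrays.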

Additional observations from a re-analysis of the deposited data

How the results depend on the processing

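The count of genes called for the mean difference depended on the fit. It was 0 without the variance trend, with averaged probe sets or with quantile normalization, 1 with all 20 arrays under either set of terms (Slc7a11 in both), 5 with robust moderation, 7 among genes above the median signal, 15 with dose as a linear term and 18 with median centring. Without the pairing by dose (no replicate block) it was 6. Leaving out 1 dose pair gave 10 to 187: 187 without the 6.25 µM pair, 88 without the 12.5 µM pair and 10 without the 25 µM pair, of which 9 were higher in 181. Among the 50 contractile genes 26 were called without the 6.25 µM pair (0.473% of all genes lower). With 2 alternatives chosen after seeing the data, a difference proportional to dose gave 700 calls (293 higher, 407 lower) and the 12 arrays of the run, with the methanol pair as the sole source of spread, gave 1239. All 24 genes of highest and lowest difference were called in both, which tests nothing, since they were picked for that difference on these arrays. By dose, the 12 arrays gave 51, 207 and 1668 calls at 6.25, 12.5 and 25 µM and 391 for the slope. At 25 µM the run term alone gave 5. Leaving out 1 array gave 0 to 26 at 25 µM and 0 to 1 at 12.5 µM, the 26 and the 1 coming without either replicate of BMP4 at 10 ng/ml. The median of BMP and SMAD targets was 0.063 among genes above the median signal, 0.028 with quantile normalization, 0.035 with median centring and 0.032 to 0.047 with a pair left out. That of aryl hydrocarbon receptor targets was 0.33 among genes above the median signal and 0.019 to 0.17 with a pair left out. Without the 25 µM pair the medians were -0.18 for contractile genes, 0.057 for NRF2 targets, -0.081 for TGF-beta targets and -0.018 for myogenic regulators, all nearer to 0 than with it, and 0.18 for inflammatory genes. Differences near 0 changed sign with the setting for Smad7 (-0.11 without the 6.25 µM pair, 0.083 without the 25 µM pair, -0.045 if proportional to dose), Sp7 (-0.012 without the 6.25 µM pair, 0.23 without the 12.5 µM pair, -0.0084 without the 25 µM pair) and Alpl (-0.023 with averaged probe sets), the 3 that did so of 120 genes picked by rule. Among other examples, Atf4 (-0.049 without the 6.25 µM pair, 0.038 without the 25 µM pair, -0.024 if proportional to dose), Adipoq (0.13 without the 6.25 µM pair, -0.079 without the 12.5 µM pair), Hmox1 (0.072 without the 6.25 µM pair, -0.079 without the 25 µM pair), Cyp1a1 (-0.14 without the 12.5 µM pair, 0.17 without the 25 µM pair) and Musk (-0.083 without the 6.25 µM pair, 0.0028 without the 25 µM pair) changed sign too. The cause of these shifts was not tested.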

Other observations

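In limma's fit 6 genes shared the smallest adjusted p of 0.0521, namely Olfr1269, Rps13, Slc1a3, Txnip, Cyp1b1 and a probe set annotated as Mir761, and they were singled out after their values were seen. The difference of Slc1a3 widened with dose, as given above, and that of Olfr1269 did not. The ribosomal protein gene Rps13 stood at 9.48, 9.37 and 9.41 in 181, against 9.01, 8.97 and 8.91 in 178 and 9.18 and 9.30 in methanol. Txnip, an inhibitor of thioredoxin and of glucose uptake, stood at 8.66, 8.81 and 8.77 in 181, against 8.29, 8.18 and 8.15 in 178 and 8.49 and 8.43 in methanol. For both, the methanol arrays lay between the compounds, with 181 above and 178 below. Olfr1269 had 6.54, 6.55 and 6.72 in 181, against 5.74, 5.74 and 5.98 in 178 and 5.97 and 5.84 in methanol.

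Fat cell genes were mixed. Cebpa, a factor of adipocyte differentiation, stood at 5.83, 6.08 and 6.62 in 181, against 5.74, 5.70 and 5.80 in 178 and 5.83 and 6.02 in methanol (difference 0.43, 0.13 to 0.73, adjusted p = 0.306). Lipoprotein lipase, Lpl, differed by 0.38 (a dimmer probe set 0.09), and Pparg, the master regulator of adipocytes, by 0.22 (0.08 without the 25 µM pair). The secreted lipase inhibitor Angptl4 was lower, at 7.88, 7.60 and 7.56 in 181, against 7.98, 8.04 and 8.16 in 178 and 7.82 and 7.88 in methanol (difference -0.38, -0.59 to -0.17, adjusted p = 0.209). Adiponectin, Adipoq, stood at 0.04. The 16 p53 targets were split, with 8 higher and 8 lower in the mean difference. Among them Trp53inp1 differed by 0.40 (0.22 to 0.57, adjusted p = 0.188) and the dim death receptor Fas by 0.33. Pmaip1 differed by -0.25 (-0.05 without the 25 µM pair) and Cdkn1a by -0.15.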
